A study of Homo sapiens with 8 samples.

Results

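The genes described here are 9 transcription factors that direct the erythroid and megakaryocyte lineages: GATA1, GATA2, LMO2, TAL1, LYL1, NFE2, GFI1B, KLF1 and ZFPM1. They were found by their symbols among the 37526 gene names listed for all 8 libraries of the series (75553 names were listed for any library), and all 9 were listed. They were chosen by lineage and with their counts in these groups already known, so their levels and differences are given as a description and no test is drawn from them. The libraries came from NB4, an established acute promyelocytic leukemia line that carries the PML/RARα fusion. Cells carried a stably integrated pLVX-shRNA2-puro construct with an shRNA against KDM3B, an H3K9 demethylase (shKDM3B), or the control construct (shNC), which the labels call empty vector and the methods a scrambled shRNA. Each was collected in regular medium, without ATRA (labelled undifferentiated), or after 1 µM all-trans retinoic acid (shNC_ATRA and shKDM3B_ATRA, labelled differentiated), which gave 4 groups of 2 libraries. The labels name 24 or 48 h of ATRA without saying which applied, and they do not say whether replicates were separate cultures, so errors and p-values measure the spread between these samples only. All groups come from 1 leukemic line, and the labels do not say which of the study's shRNAs the knockdown libraries carried.

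GATA1 and GATA2 are zinc finger proteins that bind the GATA motif. GATA2 acts in stem cells, early progenitors and mast cells, and GATA1 takes over during erythroid, megakaryocyte, eosinophil and mast cell maturation. ZFPM1 (FOG1) is its cofactor in erythroid cells and megakaryocytes. TAL1 and LYL1 are related basic helix-loop-helix proteins that pair with E proteins on E-boxes, and LMO2 is the LIM-domain adaptor that joins them to GATA factors through LDB1. NFE2 with a small MAF partner activates globin and platelet genes, GFI1B is a repressor that recruits KDM1A and RCOR1, and KLF1 is the erythroid Krüppel-like activator of adult beta-globin.

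To show the regulatory sequence of the factors with the widest differences, the 250 bases before the start site were read from RefSeq promoter windows (GRCh38.p14), written 5′ to 3′ on the strand of the gene. The windows matched 7 of the 9 factors with 10 start sites, and none is shown for LMO2 and NFE2. GATA1 is shown because it differed most with the knockdown, the 2 start sites each of GFI1B and GATA2 because these factors differed most with ATRA, LYL1 as a lower factor under ATRA that holds a GATA motif, and KLF1 as the factor with the most GATA matches and almost no counts. Capitals mark GATA motifs (AGATAA or else TGATAA, and the same ending in G, AGATAG or else TGATAG, on either strand), except in GATA2, where they mark AGGTCA, the half-site bound by retinoic acid receptors.
GATA1, chrX:48786340-48786589, plus strand: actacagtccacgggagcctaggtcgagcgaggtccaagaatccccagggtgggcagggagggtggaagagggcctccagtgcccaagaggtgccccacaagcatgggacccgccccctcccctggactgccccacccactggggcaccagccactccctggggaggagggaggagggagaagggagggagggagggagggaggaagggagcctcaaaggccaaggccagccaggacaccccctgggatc
GATA2 first window, chr3:128488531-128488780, minus strand: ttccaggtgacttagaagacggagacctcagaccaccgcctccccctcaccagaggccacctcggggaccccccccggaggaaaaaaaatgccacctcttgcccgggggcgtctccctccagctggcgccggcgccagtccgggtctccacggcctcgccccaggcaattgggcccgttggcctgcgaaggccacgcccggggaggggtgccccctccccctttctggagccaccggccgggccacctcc
GATA2 second window, chr3:128493202-128493451, minus strand: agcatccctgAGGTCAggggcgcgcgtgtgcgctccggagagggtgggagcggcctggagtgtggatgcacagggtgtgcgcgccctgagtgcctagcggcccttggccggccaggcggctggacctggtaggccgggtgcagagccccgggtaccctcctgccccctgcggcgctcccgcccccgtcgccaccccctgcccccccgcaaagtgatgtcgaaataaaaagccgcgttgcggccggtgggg
LYL1, chr19:13102859-13103108, minus strand: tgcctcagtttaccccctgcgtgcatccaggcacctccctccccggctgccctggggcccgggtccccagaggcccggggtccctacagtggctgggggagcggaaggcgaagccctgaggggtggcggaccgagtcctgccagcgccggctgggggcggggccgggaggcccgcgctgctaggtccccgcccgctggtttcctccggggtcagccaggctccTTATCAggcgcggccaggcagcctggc
GFI1B first start, chr9:132945281-132945530, plus strand: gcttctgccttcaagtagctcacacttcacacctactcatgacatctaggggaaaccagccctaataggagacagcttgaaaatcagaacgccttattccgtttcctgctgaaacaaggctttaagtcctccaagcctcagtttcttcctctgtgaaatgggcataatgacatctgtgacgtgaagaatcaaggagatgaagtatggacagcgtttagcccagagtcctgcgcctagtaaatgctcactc
GFI1B second start, chr9:132978444-132978693, plus strand: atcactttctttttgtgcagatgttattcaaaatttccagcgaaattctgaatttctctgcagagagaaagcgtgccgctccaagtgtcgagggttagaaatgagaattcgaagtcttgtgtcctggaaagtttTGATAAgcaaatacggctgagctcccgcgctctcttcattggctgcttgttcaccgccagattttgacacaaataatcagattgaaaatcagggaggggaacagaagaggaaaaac
KLF1, chr19:12887202-12887451, minus strand: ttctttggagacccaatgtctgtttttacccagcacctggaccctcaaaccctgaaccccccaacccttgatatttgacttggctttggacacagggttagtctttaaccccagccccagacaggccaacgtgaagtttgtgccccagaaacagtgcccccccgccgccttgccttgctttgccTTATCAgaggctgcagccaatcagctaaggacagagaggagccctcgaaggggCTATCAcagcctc

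The GATA motif was in 4 of the 10 windows of these factors, once each in LYL1, the second GFI1B start and 1 of the TAL1 starts and 2 times in KLF1. Of all 35116 promoter windows of this length, 22.3% held it. The half-site AGGTCA, searched on both strands, was in 1 of the 10 windows (the second of GATA2, while the first held 3 E-boxes) and in 12.1% of all windows. The E-box CANNTG was in 5 of the 10 and in 61.8% of all, and TGANTCA, the core of the NF-E2 and AP-1 sites, was in 1 of the 10 (TAL1, where it overlaps an E-box) and in 6.57% of all. The GATA1 window held none of these letters, which says nothing of binding elsewhere. Such matches describe the letters only, and no binding was measured.

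Libraries held 9708739 to 33017787 read pairs on genes. In 3 of the 4 ATRA libraries (shNC_ATRA replicate 2 and both shKDM3B_ATRA) 50.0% to 51.4% of read pairs lay outside genes, against 8.49% to 9.62% in the other 5, shNC_ATRA replicate 1 among them. The knockdown under ATRA can be read within the 3 alike libraries by leaving out shNC_ATRA replicate 1, and the ATRA difference in shNC cells within the other kind by leaving out shNC_ATRA replicate 2. In shKDM3B cells the ATRA difference and this property cannot be told apart. CPM stands for counts per 1000000 read pairs on the gene names listed for all libraries, with that total scaled by TMM over the 8 libraries. KDM3B itself had 187 and 188 CPM in shNC, 76.3 and 86.2 in shKDM3B, 196 and 121 in shNC_ATRA, and 52.5 and 57.4 in shKDM3B_ATRA, so every knockdown library lay below every control library. MPO, a promyelocyte granule enzyme, had 6678 to 310203 counts in each library. ELANE, the neutrophil elastase of the same granules, had 0 to 7 counts.

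In brief, GATA1 was lower and LMO2 higher with the KDM3B knockdown, both without and with ATRA. GFI1B was 34.2 and 52.7 times higher with ATRA in shNC and shKDM3B cells, the second on few untreated counts, while for GATA2, LYL1 and ZFPM1 all 4 ATRA libraries lay below all 4 untreated ones. NFE2 was lower with the knockdown under ATRA but not without it, and TAL1 and KLF1 had at most 3 counts in any library. Log2 fold changes come from edgeR fits of each pair of groups with 1 standard error (SE).

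**Figure D1:**
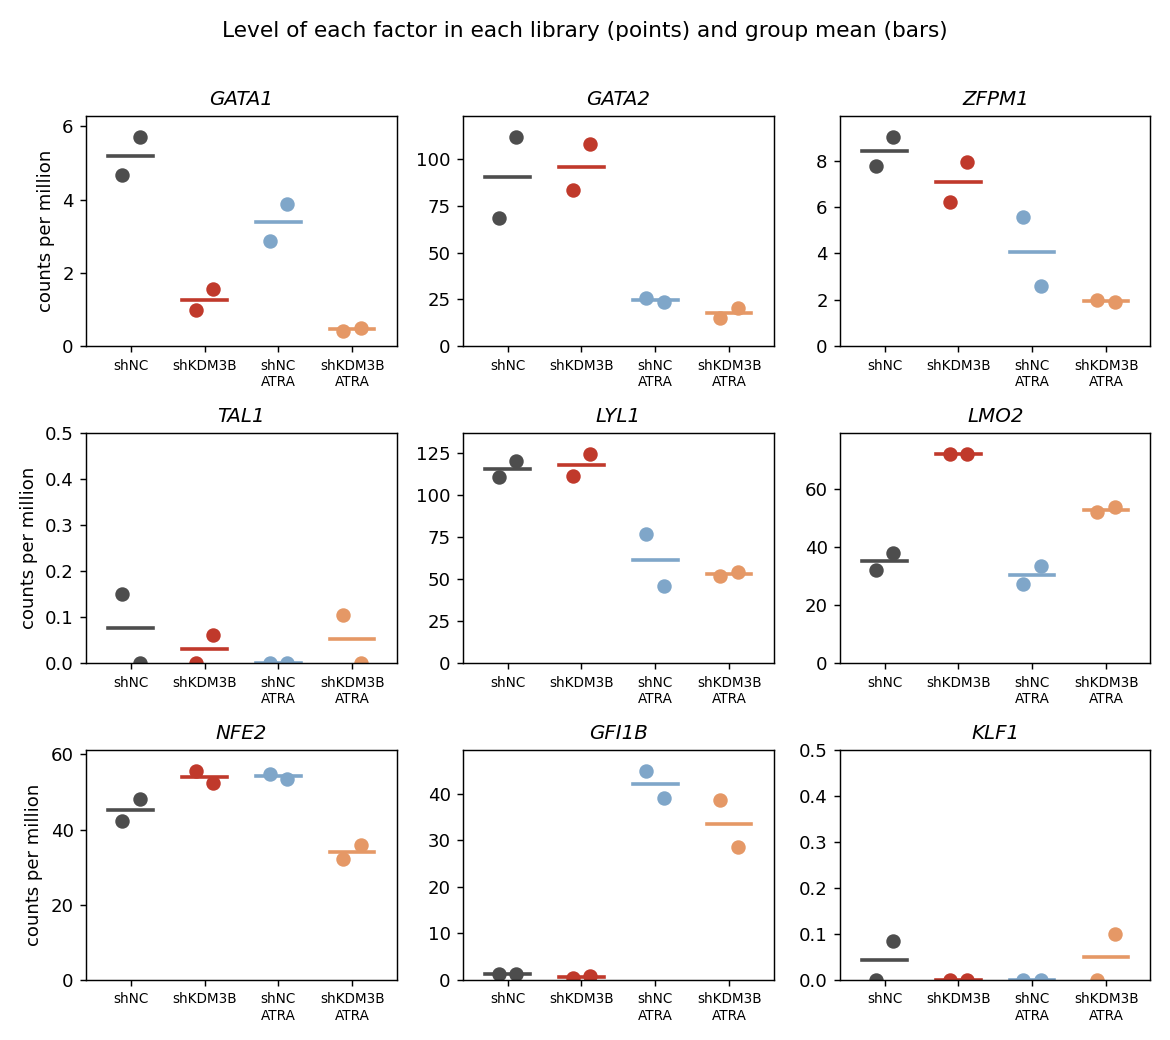
Level of the 9 factors in CPM (linear axes from 0), each point a library and each bar a group mean of 2 libraries. GATA1 is low in both knockdown groups, LMO2 high in both, GFI1B high in both ATRA groups, and TAL1 and KLF1 stay at or below 0.151 CPM.

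GATA1 (chrX:48786540-48794311, plus strand) was the factor with the widest difference on knockdown. It had 4.67 and 5.71 CPM in shNC libraries (93 and 136 counts) and 0.976 and 1.56 CPM in shKDM3B (19 and 51 counts). Under ATRA it had 2.88 and 3.87 CPM in shNC_ATRA (47 and 42 counts) and 0.421 and 0.502 CPM in shKDM3B_ATRA (4 and 5 counts). The 4 groups did not overlap anywhere, and in order of level they ran shKDM3B_ATRA, shKDM3B, shNC_ATRA, shNC. The knockdown difference was -2.00 ± 0.35 on the log2 scale without ATRA, 4.0 times lower, with -2.42 to -1.73 when single libraries were left out. With ATRA it was -2.83 ± 0.45, 7.13 times lower, and -3.02 among the 3 alike libraries. The low counts of the shKDM3B_ATRA libraries set the precision of this value. With ATRA, GATA1 differed by -0.59 ± 0.39 in shNC cells (-0.84 without shNC_ATRA replicate 2) and by -1.42 ± 0.51 in shKDM3B cells. In bulk RNA, fewer cells of a type and less RNA per cell cannot be told apart, which holds for every level given here.

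GATA2 (chr3:128479427-128493201, minus strand), the factor that precedes GATA1 in progenitors, differed little with the knockdown and was lower with ATRA. Its levels were 68.6 and 112 CPM in shNC and 83.3 and 108 CPM in shKDM3B. The shNC libraries enclosed the shKDM3B libraries, and the difference of 0.08 ± 0.24 turned sign when shNC replicate 1 (-0.22) or shKDM3B replicate 2 (-0.13) was left out. With ATRA its levels were 26.0 and 23.6 CPM in shNC_ATRA and 15.3 and 20.3 CPM in shKDM3B_ATRA. All 4 ATRA libraries lay below all 4 untreated ones. The ATRA difference was -1.83 ± 0.29 in shNC cells, 3.55 times lower (-1.79 without shNC_ATRA replicate 2), and -2.37 ± 0.20 in shKDM3B cells, 5.18 times lower. Under ATRA the knockdown libraries lay just below the controls, with -0.48 ± 0.24 (-0.40 among the 3 alike libraries). Its exons overlap GATA2-AS1 on the other strand over 1.59% of their length, and the TruSeq kit named in the labels does not mark strand.

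ZFPM1 (chr16:88453280-88537031, plus strand), the GATA1 cofactor, was scarce. Its levels were 7.78 and 9.02 CPM in shNC, 6.22 and 7.95 in shKDM3B, 5.58 and 2.58 in shNC_ATRA, and 2.0 and 1.91 in shKDM3B_ATRA. The untreated groups overlapped, and all ATRA libraries were lower than all untreated ones. With ATRA it differed by -1.0 ± 0.44 in shNC cells and by -1.81 ± 0.31 in shKDM3B cells. The 2 shNC_ATRA libraries were far apart, and replicate 2, with 50.0% of its read pairs outside genes, was the lower. Without shNC_ATRA replicate 2 the shNC value was -0.58, and without replicate 1 it was -1.67. The knockdown difference was -0.24 ± 0.25 without ATRA and -1.06 ± 0.53 with it, and the latter was -0.39 without shNC_ATRA replicate 1 and -1.51 without replicate 2.

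Of the helix-loop-helix pair, TAL1 (chr1:47216290-47232225, minus strand) was barely counted and LYL1 (chr19:13099033-13103161, minus strand) plentiful. TAL1 had 3 and 0 counts in shNC, 0 and 2 in shKDM3B, 0 and 0 in shNC_ATRA, and 1 and 0 in shKDM3B_ATRA. These counts are at or under 3 per library, which stands for 0.0920 to 0.316 CPM at these depths, so no fold is given and no change was detectable. This limit covers counting error only, and 14.8% of the TAL1 exon length overlaps a gene on the other strand. LYL1 had 111 and 120 CPM in shNC, 112 and 125 in shKDM3B, 76.8 and 45.6 in shNC_ATRA, and 51.9 and 54.0 in shKDM3B_ATRA. The untreated groups overlapped, as did the ATRA groups, and each ATRA library was below each untreated one. With ATRA LYL1 differed by -0.88 ± 0.28 in shNC cells (-0.58 without shNC_ATRA replicate 2, -1.31 without replicate 1) and by -1.10 ± 0.13 in shKDM3B cells. The knockdown values were 0.03 ± 0.15 without ATRA and -0.21 ± 0.30 with it, and the second was 0.23 among the 3 alike libraries.

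LMO2 (chr11:33858576-33892076, minus strand), the adaptor of the complex, was the factor that was higher with the knockdown in both states. It had 32.0 and 37.9 CPM in shNC (637 and 904 counts) and 71.9 and 72.0 CPM in shKDM3B (1400 and 2347 counts). With ATRA it had 27.3 and 33.4 CPM in shNC_ATRA and 51.9 and 53.8 CPM in shKDM3B_ATRA. Every knockdown library was above every control library, and the 2 control groups overlapped each other. The knockdown difference was 1.04 ± 0.16, 2.06 times higher, without ATRA, and 0.80 ± 0.17, 1.75 times higher, with it (0.67 among the 3 alike libraries). With ATRA LMO2 differed by -0.17 ± 0.23 in shNC cells (-0.35 without shNC_ATRA replicate 2) and by -0.39 ± 0.13 in shKDM3B cells.

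NFE2 (chr12:54292111-54301015, minus strand), the large NF-E2 subunit, had fitted knockdown differences of opposite sign without and with ATRA. The one without ATRA did not pass the thresholds given below. Its levels were 42.4 and 48.0 CPM in shNC and 55.7 and 52.5 CPM in shKDM3B, where the knockdown libraries were the higher. They were 54.9 and 53.6 CPM in shNC_ATRA and 32.2 and 35.9 CPM in shKDM3B_ATRA, where the knockdown libraries were the lower. The order of groups was shKDM3B_ATRA, shNC, shKDM3B and shNC_ATRA, of which the last 2 overlapped. The knockdown difference was 0.26 ± 0.16 without ATRA and -0.67 ± 0.14 with it (-0.64 among the 3 alike libraries). The ATRA difference was 0.30 ± 0.21 in shNC cells (0.29 without shNC_ATRA replicate 2) and -0.61 ± 0.15 in shKDM3B cells. In the fit of all 8 libraries the 2 ATRA differences were -0.93 ± 0.20 apart on the log2 scale, with -1.03 to -0.82 when single libraries were left out.

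GFI1B (chr9:132944000-132991687, plus strand), the repressor, had the widest difference of all with ATRA. It had 1.15 and 1.34 CPM in shNC (23 and 32 counts) and 0.360 and 0.859 CPM in shKDM3B (7 and 28 counts). With ATRA it had 45.0 and 39.1 CPM in shNC_ATRA (735 and 424 counts) and 38.8 and 28.5 CPM in shKDM3B_ATRA (368 and 284 counts). The 4 groups did not overlap, in the order shKDM3B, shNC, shKDM3B_ATRA, shNC_ATRA. The ATRA difference was 5.10 ± 0.29 in shNC cells, 34.2 times higher (5.17 without shNC_ATRA replicate 2), and 5.72 ± 0.34 in shKDM3B cells, 52.7 times higher. The latter was 6.56 without shKDM3B replicate 2 and 5.28 without shKDM3B replicate 1. The highest library was shNC_ATRA replicate 1, in which 9.36% of read pairs lay outside genes, and the next was shNC_ATRA replicate 2 with 50.0%. The knockdown difference was -0.97 ± 0.51 without ATRA, on few counts, with -1.79 without shKDM3B replicate 2 and -0.54 without replicate 1. With ATRA it was -0.32 ± 0.23 (-0.21 among the 3 alike libraries). GFI1B exons overlap TSC1 on the other strand over 5.72% of their length.

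KLF1 (chr19:12884422-12887201, minus strand), the erythroid activator, had 0 and 2 counts in shNC, 0 and 0 in shKDM3B, 0 and 0 in shNC_ATRA, and 0 and 1 in shKDM3B_ATRA. All were under the limit of 3 counts, so neither its presence nor a difference was detectable at this depth.

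**Figure D2:**
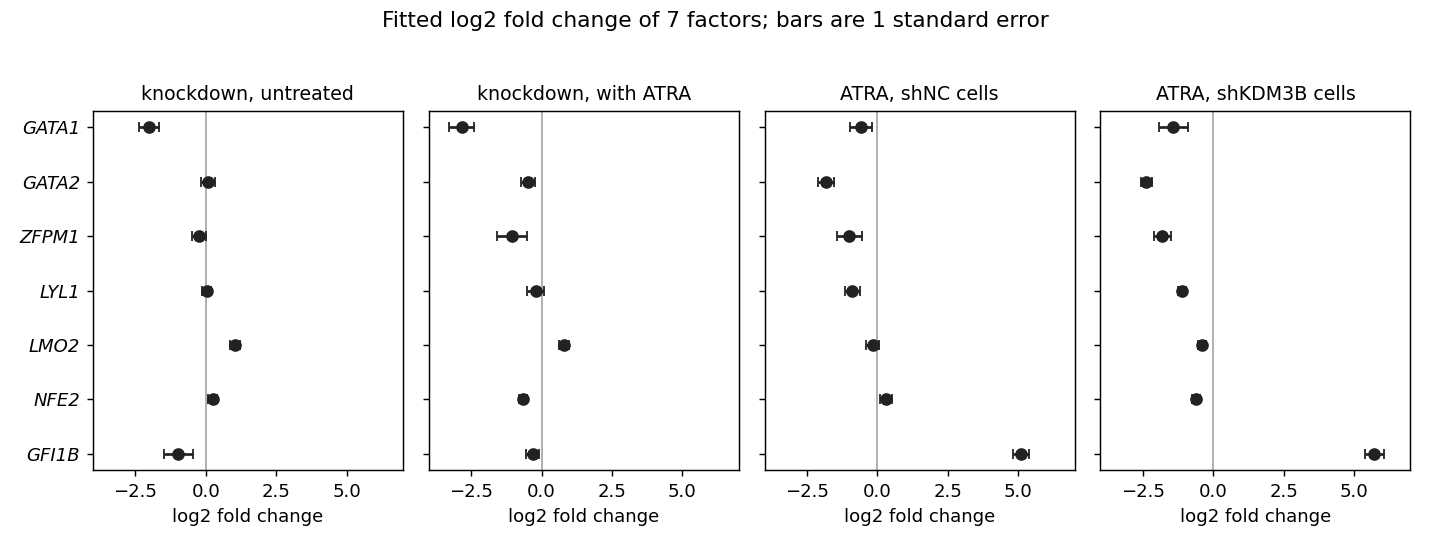
Fitted log2 fold change (horizontal axis) of the 7 factors with enough counts in the 4 comparisons, with bars of 1 standard error from fits of 2 against 2 libraries. GATA1 lies at -2.00 and -2.83 in the knockdown panels, LMO2 at 1.04 and 0.80, and GFI1B at 5.10 and 5.72 in the ATRA panels.

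Among the 9 factors, 7 passed the low-count filter, and TAL1 and KLF1 were not tested in any comparison. A gene is called here at an unadjusted P-value under 0.05 with at least a 1.5-fold difference in edgeR's quasi-likelihood test, the thresholds of the study. With the knockdown in untreated cells 1 factor was called higher (LMO2) and 1 lower (GATA1), where 3.48% of all genes tested were called higher and 3.53% lower. Under ATRA the knockdown gave 1 call higher (LMO2) and 2 lower (GATA1 and NFE2), against 2.42% and 4.37% of all genes. With ATRA in shNC cells 1 was called higher (GFI1B) and 2 lower (GATA2 and LYL1), against 15.0% and 10.8%. In shKDM3B cells 1 was called higher (GFI1B) and 5 lower (GATA1, GATA2, ZFPM1, LYL1 and NFE2), against 24.0% and 18.3%. For the difference between the ATRA responses, only NFE2 was called, where 3.99% of genes were. Some calls did not hold when 1 library was left out. Under ATRA the LMO2 and NFE2 calls with the knockdown were lost without either shKDM3B_ATRA library (0.83 and 0.78, -0.59 and -0.74) and the GATA1 call without replicate 1 (-2.71). The LYL1 call in shNC cells was lost without shNC_ATRA replicate 2 or either shNC library (-0.58, -0.97 and -0.83). In shKDM3B cells the GATA1 call was lost without either shKDM3B_ATRA library (-1.32 and -1.55) and in DESeq2 (-1.43), GATA1 was not tested without shKDM3B replicate 2, and the NFE2 call was lost without shKDM3B_ATRA replicate 1 (-0.56). Other calls appeared under some alternatives. ZFPM1 was called with ATRA in shNC cells without shNC_ATRA replicate 1, in the fit of all 8 libraries, with library size alone and with the replicate block, and with the knockdown under ATRA without shNC_ATRA replicate 2 and in the fit of all 8 libraries. GFI1B was called with the knockdown in untreated cells without shKDM3B replicate 2, in the fit of all 8 libraries, without the low-count filter and with the replicate block. For the difference between ATRA responses, GATA2 was called without shNC replicate 2, GFI1B without shKDM3B replicate 2 and ZFPM1 without shNC_ATRA replicate 2. Since the factors were picked with these groups known, nothing is read from these counts. After Benjamini-Hochberg adjustment 0.0217% of genes were called for the knockdown in untreated cells and 12.9% and 40.2% for ATRA in shNC and shKDM3B cells. For the knockdown under ATRA it was 0% (0 of 14281 genes in edgeR, where 1383 had an unadjusted p under 0.05 and DESeq2 called 357 at an adjusted p). The comparisons share libraries, so they are not independent of each other. Groups of 2 often do not overlap: 40.3% of all genes were apart in the knockdown comparison without ATRA and 49.6% with it, and 57.1% and 76.8% in the ATRA comparisons of shNC and shKDM3B cells. No such share was counted for 4 against 4 libraries or for all 4 groups apart.

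Levels of different factors were set side by side as CPM per kilobase of exon. In shNC cells LYL1 was highest with 37.0 ± 2.10 (SD, n = 2), followed by NFE2 with 19.1 ± 1.70, GATA2 with 18.3 ± 6.21 and LMO2 with 12.1 ± 1.45. NFE2 and GATA2 did not differ beyond their spread. GATA1 had 3.34 ± 0.47, ZFPM1 1.36 ± 0.14 and GFI1B 0.205 ± 0.022 CPM per kilobase. In shKDM3B_ATRA cells LMO2, with 18.2 ± 0.45, lay beside LYL1, with 17.0 ± 0.46, and both were above NFE2, with 14.4 ± 1.09. GFI1B, the lowest of the 7 in shNC cells, was at 5.51 ± 1.18 there and GATA1, at 0.297 ± 0.037, was lowest together with ZFPM1, at 0.317 ± 0.011.

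**Figure D3:**
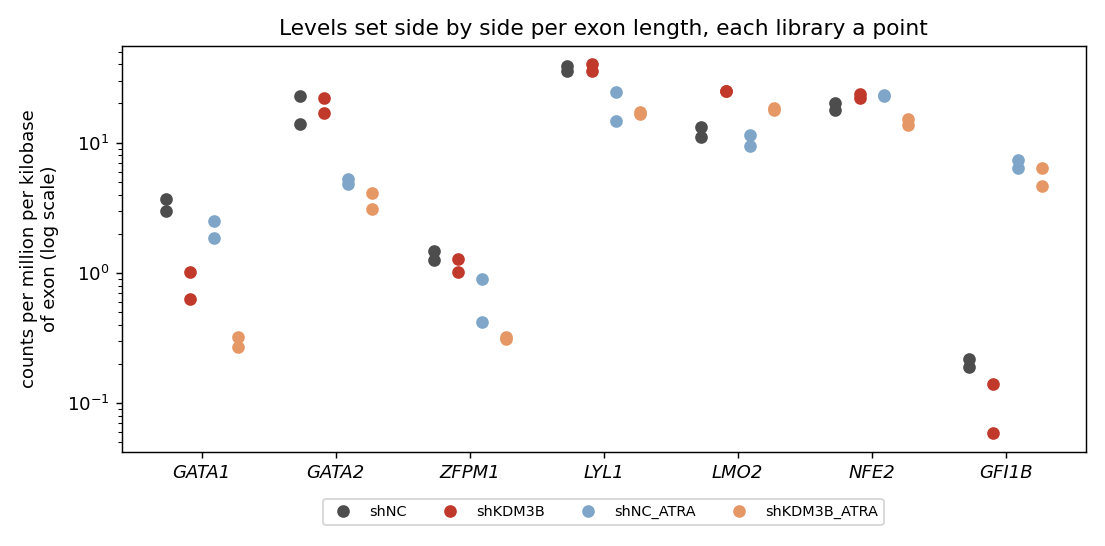
CPM per kilobase of exon (log axis) for 7 factors, each point a library and each color a group of 2 libraries. LYL1 leads in untreated cells, LMO2 and LYL1 lie together in shKDM3B_ATRA, and GFI1B spans the widest range.

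The partners of these factors were read from lists set up beside the factors, and ranges over the alternatives below count calls at the unadjusted threshold. One list held 11 partners of the TAL1 and LMO2 complex (LDB1, SSBP and E proteins, LMO4, and ETO family corepressors). Of these, 9 were tested, and 0 were called with the knockdown in untreated cells by edgeR (0 to 1 over the alternatives). There 3.48% of all genes were called higher and 3.53% lower. Under ATRA TCF12, an E protein, was called higher with the knockdown at 134 and 109 CPM against 80.3 and 76.7 CPM (0.63 ± 0.16, adjusted p = 0.502 in edgeR), a call lost without shKDM3B_ATRA replicate 1. It was the 1 call of 9 there (0 to 3 over the alternatives), against 2.42% of all genes higher and 4.37% lower. With ATRA in shNC cells 4 of the 9 fell, where 10.8% of all genes did, with a median of -0.43 against 0.02 over all genes. They included CBFA2T3, the ETO2 corepressor (-1.23 ± 0.30, adjusted p = 0.0380 in edgeR), SSBP2, which stabilizes LDB1 (-1.18 ± 0.28), and TCF3, which encodes the E proteins E12 and E47 (-1.0 ± 0.23). These 3 calls were lost without shNC replicate 2. In shKDM3B cells 3 of the 9 fell, against 18.3% of all genes, TCF3 by the most (-1.31 ± 0.16). The shNC count ranged from 0 to 5 and the shKDM3B count from 3 to 6 over the alternatives.

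ID1 and ID2, which sequester E proteins, were the 2 of 4 listed genes tested with ATRA, and both rose in both cell types. Of all genes 15.0% were called higher in shNC cells and 24.0% in shKDM3B cells. ID1 passed the low-count filter through the ATRA groups alone, which favored a rise in advance. ID1 had 0.803 and 0.168 CPM in shNC and 34.9 and 24.4 in shNC_ATRA, with 0.206 and 0.215 in shKDM3B and 10.6 and 12.3 in shKDM3B_ATRA. Its ATRA difference was 5.99 ± 0.63 in shNC cells (edgeR adjusted p = 0.00153), resting on 16 and 4 counts without ATRA (7.41 without shNC replicate 1 and 5.21 without replicate 2). ID2 had 8.33 and 3.73 CPM in shNC and 54.4 and 67.8 in shNC_ATRA, a rise of 3.38 ± 0.40 (4.03 without shNC replicate 1). The other 2 listed genes were not tested: ID3 had 12 and 4 counts in shNC, 0 and 4 in shKDM3B and 0 to 2 in the ATRA libraries, and ID4 was at 0 throughout. Under ATRA ID1 was called lower with the knockdown (-1.37 ± 0.28, adjusted p = 0.502 in edgeR), a call lost in 2 of the 4 fits that leave out 1 library. It was the 1 call of 2 tested there, against 4.37% of all genes lower and 2.42% higher.

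Among 8 small MAF, BACH and NFE2-like genes, BACH1, a repressor that competes with NF-E2 for MAF partners, was called lower with the knockdown in both states. It had 47.6 and 42.8 CPM in shNC against 27.1 and 26.1 in shKDM3B (-0.77 ± 0.17, adjusted p = 0.152 in edgeR), and 63.4 and 68.1 CPM in shNC_ATRA against 31.5 and 37.0 in shKDM3B_ATRA (-0.94 ± 0.15, adjusted p = 0.502 in edgeR), the second call lost without shKDM3B_ATRA replicate 1. NFE2L3 was the 1 gene called higher with the knockdown in untreated cells (0.84 ± 0.21), though 28.1% of its exon length overlaps HNRNPA2B1 on the other strand. That made 1 higher and 1 lower of 7 tested, against 3.48% and 3.53% of all genes, with 1 to 3 called over the alternatives. MAFK (-0.75 ± 0.20) and BACH2 (-2.83 ± 0.91) were the others of 3 called lower under ATRA, the latter on 1 and 6 counts against 50 and 23. BACH2 was at -4.49 without shKDM3B_ATRA replicate 2 and at -2.08, no longer called, without replicate 1, and the MAFK call was lost without either. MAFK exons overlap TMEM184A on the other strand over 18.1% of their length. The count under ATRA was 0 to 5 over the alternatives, against 4.37% of all genes called lower. With ATRA in shNC cells BACH2 rose from 3 and 2 counts to 50 and 23, and MAFF was called higher (1.70 ± 0.46), a call lost without shNC replicate 1. These were 2 of 8, with 1 to 5 over the alternatives, where 15.0% of all genes were called higher. In shKDM3B cells 0 of the 7 tested were called in edgeR, although 5 had an unadjusted p under 0.05, and 24.0% of all genes were called higher and 18.3% lower. The alternatives gave 0 to 3.

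A further list held 19 genes, corepressor subunits that GFI1B and ZFPM1 recruit and GFI1, the paralog of GFI1B. Of them 0 were called with the knockdown in either state by edgeR, with 0 to 1 and 0 to 2 over the alternatives, where 3.48% and 3.53% of all genes were called higher and lower without ATRA and 2.42% and 4.37% with it. With ATRA in shNC cells 5 fell and 1 rose, against 10.8% and 15.0% of all genes, and 2 to 8 were called over the alternatives. MTA3, a NuRD subunit, fell by 0.96 ± 0.21 on the log2 scale, and KDM1A, the demethylase that GFI1B recruits, had 223 and 245 CPM in shNC and 132 and 115 in shNC_ATRA (-0.88 ± 0.20, adjusted p = 0.0314 in edgeR). In shKDM3B cells 9 fell and 2 rose, against 18.3% and 24.0% of all genes.

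Among 16 further stem cell and lineage factors, of which 13 were tested, MYB and KLF3 were called higher with the knockdown in both states and 0 lower, against 3.48% of all genes higher without ATRA and 2.42% with it. MYB, a progenitor factor, had 285 and 434 CPM in shNC and 651 and 547 in shKDM3B (0.74 ± 0.21, adjusted p = 0.247 in edgeR), and 157 and 230 in shNC_ATRA and 381 and 361 in shKDM3B_ATRA (0.94 ± 0.23). KLF3, a repressor induced by KLF1 in red cells, differed by 0.59 ± 0.17 and 1.20 ± 0.26. Without ATRA the MYB and KLF3 calls were lost without shNC replicate 1, and the KLF3 call also without shKDM3B replicate 1. Under ATRA both were lost without shKDM3B_ATRA replicate 1 and the MYB call without replicate 2. Without ATRA the count was 0 to 2 over the alternatives, and with it 0 to 5. With ATRA 1 rose and 3 fell in shNC cells (1 to 6 called over the alternatives) and 4 rose and 4 fell in shKDM3B cells (5 to 8), against 15.0% and 10.8%, and 24.0% and 18.3%, of all genes. BCL11A, the fetal globin repressor, fell with ATRA from 19.9 and 28.6 to 1.78 and 3.32 CPM in shNC cells (-3.23 ± 0.42, adjusted p = 0.00323 in edgeR) and likewise in shKDM3B cells (-2.82 ± 0.22).

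Genes of the cells that these factors build were read next. Of 35 erythroid genes, 19 had at most 3 counts in every library, among them the alpha and beta globins, which were at 0. Of the 11 tested with the knockdown in untreated cells, CA2, the red cell carbonic anhydrase, was called higher at 6.17 and 7.76 against 2.26 and 3.44 CPM (1.29 ± 0.32, adjusted p = 0.191 in edgeR), where 3.48% of all genes were, and the list median was -0.09 against 0.00 for all genes. With ATRA in shNC cells CA2 fell (-3.33 ± 0.69, with -4.47 without shNC_ATRA replicate 2, -2.58 without its replicate 1 and no call without shNC replicate 2), FAM210B fell and ERMAP rose, each of the last 2 calls lost in 3 of the 4 fits that leave out 1 library. These 3 of 11, 1 higher and 2 lower against 15.0% and 10.8% of all genes, became 0 to 5 over the alternatives. In shKDM3B cells 5 of 11 rose and 2 fell, against 24.0% and 18.3% of all genes. EPB42, a membrane skeleton protein, had 1 and 3 counts in shKDM3B and 21 and 37 in shKDM3B_ATRA, and RHCE, a Rh antigen gene, had 6 and 11 counts and then 43 and 57. In shNC_ATRA these genes had 2 and 8 counts in replicate 1 and 45 and 75 in replicate 2. The high libraries were the 3 with 50.0% to 51.4% of read pairs outside genes, and the part of that property in the EPB42 and RHCE values was not tested. Among 10 heme synthesis genes 1 rose with ATRA, ALAS1, the housekeeping first enzyme of the pathway, from 107 and 102 to 781 and 684 CPM in shNC cells (2.84 ± 0.21, adjusted p = 0.000385 in edgeR). The count was also 1 of 10 in shKDM3B cells, with 1 to 2 over the alternatives in both, against 15.0% and 24.0% of all genes called higher. ALAS2, its erythroid form, had 0 to 7 counts.

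Of 29 megakaryocyte and platelet genes, 15 had at most 3 counts in every library, including PF4 and GP9 at 0. With the knockdown in untreated cells 3 of 11 fell, against 3.53% of all genes. RAB27B, a platelet granule GTPase, had 52.3 and 45.5 CPM in shNC and 13.7 and 9.91 in shKDM3B (-2.06 ± 0.22), and it alone passed the adjustment (adjusted p = 0.0484 in edgeR), which it missed with all 8 libraries in one fit (adjusted p = 0.146) and with names listed for all libraries (adjusted p = 0.0575), over a range of 3.27e-16 to 0.146. ITGA2B, the platelet fibrinogen receptor chain, had 7.78 and 7.59 against 1.75 and 3.56 CPM (-1.51 ± 0.36, or -2.15 without shKDM3B replicate 2), and THBS1, thrombospondin, differed by -1.60 ± 0.43, or -0.59 without shNC replicate 1 and -2.19 without its replicate 2. SELP, the P-selectin gene, had 0 or 1 count in every untreated library. It had 238 and 213 counts in shNC_ATRA and 5 and 18 in shKDM3B_ATRA, a knockdown difference of -3.85 ± 0.74 under ATRA (adjusted p = 0.502 in edgeR). It was -4.99 without shKDM3B_ATRA replicate 2 and -3.23 without replicate 1, and the list had 2 of 12 called lower and 0 higher there, against 4.37% and 2.42% of all genes, with 2 to 8 over the alternatives. Each shNC_ATRA library (14.6 and 19.6 CPM) lay above each shKDM3B_ATRA library (0.527 and 1.81 CPM). TUBB1, the platelet tubulin, had 0 and 30 counts in the shNC_ATRA libraries and 15 and 15 in shKDM3B_ATRA, again higher in the 3 libraries with the most read pairs outside genes, and 35.5% of its exon length overlaps ATP5F1E on the other strand. With ATRA 4 of the 12 tested in shNC cells rose and 3 fell (4 to 8 called over the alternatives), against 15.0% and 10.8% of all genes, and 3 of 13 rose and 1 fell in shKDM3B cells (4 to 7), against 24.0% and 18.3%.

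Of the lists read, the one with the most calls in the untreated knockdown comparison held genes of mast cells, basophils and eosinophils, lineages in which GATA1 and GATA2 act. Of 23 genes 14 were tested with the knockdown in untreated cells, 9 were called lower and 0 higher, against 3.53% and 3.48% of all genes, and the median was -1.05 against 0.00. The alternatives called 5 (all 8 libraries in one fit) to 11 (no filter on low counts) genes of the list, with 6 to 8 when 1 library was left out, and after adjustment edgeR called 0. SIGLEC8, an eosinophil and mast cell inhibitory receptor, had 2.16 and 2.90 CPM in shNC against 0.411 and 0.522 in shKDM3B (-2.41 ± 0.42, adjusted p = 0.111 in edgeR). IL5RA, the interleukin 5 receptor, had 17 and 22 counts against 3 and 8. ALOX15, a lipoxygenase of eosinophils, had 12 and 13 against 2 and 7, a call lost in each of the 4 fits that leave out 1 library. The low-count filter keeps a gene that is high enough in 1 group. SIGLEC8, IL5RA and ALOX15 passed it through shNC alone, so for such genes a lower value was favored in advance. The 9 calls and the list median include them. HDC, which makes histamine, was at 198 and 323 against 96.8 and 180 CPM. Under ATRA 4 of 10 were called lower with the knockdown and 0 higher, where 4.37% and 2.42% of all genes were, and 8 genes were called without shNC_ATRA replicate 1, 9 without its replicate 2 and 2 without shKDM3B_ATRA replicate 1. Over the alternatives 2 to 9 were called, and after adjustment 0. FCER1G, the Fc receptor gamma chain, had 45.9 and 57.9 against 13.1 and 20.7 CPM there (-1.62 ± 0.31).

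With ATRA in shNC cells 9 of 15 mast cell, basophil and eosinophil genes fell and 3 rose, against 10.8% and 15.0% of all genes. HDC fell to 12.4 and 11.8 CPM (-4.39 ± 0.31, adjusted p = 0.000325 in edgeR), while CLC, the Charcot-Leyden crystal protein, rose from 0.251 and 0.587 to 8.34 and 30.2 CPM (5.51 on the log2 scale, 4.27 without shNC_ATRA replicate 2 and 6.15 without replicate 1) and CCR3, the eotaxin receptor, from 0.502 and 0.294 to 9.01 and 9.68 CPM. In shKDM3B cells 7 of 10 fell and 3 rose, against 18.3% and 24.0% of all genes. The summed level of the 23 genes was 572 and 839 CPM in shNC, 281 and 444 in shKDM3B, 164 and 198 in shNC_ATRA, and 49.6 and 78.0 in shKDM3B_ATRA. HDC gave 198 and 323 CPM of this sum in shNC, 96.8 and 180 in shKDM3B, and 12.4 and 11.8 in shNC_ATRA. GATA1 ran in the order shKDM3B_ATRA, shKDM3B, shNC_ATRA and shNC. The list, by a sum in which HDC had a large part without ATRA, had shKDM3B and shNC_ATRA in the other order. Beside them, the summed level of 10 promyelocyte and granulocyte markers, led by MPO, was 4881 and 5969 CPM in shNC and 8926 and 10166 in shKDM3B. It was 2079 and 1604 in shNC_ATRA and 3918 and 3080 in shKDM3B_ATRA. In shNC cells MPO made up most of the sum (4284 and 5343 CPM), and the other markers did not all run with it. CTSG, cathepsin G, had 105 and 115 CPM in shNC, 149 and 127 in shKDM3B, and 1.71 to 4.11 in the ATRA libraries. CEBPA, a myeloid factor, had 162 to 218 CPM without ATRA and 96.4 to 108 with it, though 43.9% of its exon length overlaps genes on the other strand. ITGAM, the CD11b chain, had 20.5 and 26.1 CPM in shNC, 9.86 and 14.9 in shKDM3B, 217 and 154 in shNC_ATRA, and 104 and 106 in shKDM3B_ATRA. CEBPE, a granulocyte factor, had 51.2 to 74.3 CPM without ATRA and 259 to 427 with it, and SPI1 (PU.1) 108 to 173 and 224 to 495.

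Markers of other cell types were read beside these. T cell markers (5 genes) summed to 0.105 to 1.57 CPM, and 2 of the 5 were at 0 in every library. B cell markers (5 genes) summed to 10.9 and 12.5 CPM in shNC, 6.32 and 10.6 in shKDM3B, 22.2 and 25.8 in shNC_ATRA, and 13.9 and 16.8 in shKDM3B_ATRA, with MS4A1 and PAX5 at 0 in every library. CD79A, of the B cell receptor, had 3.21 and 3.06 CPM in shNC, 1.28 and 2.33 in shKDM3B, 16.4 and 16.1 in shNC_ATRA, and 6.95 and 8.24 in shKDM3B_ATRA, while its partner CD79B had 2.67 to 7.43 without ATRA and 0.316 to 1.66 with it. Epithelial markers (5 genes) summed to 17.9 to 25.2 CPM, mostly EPCAM (13.1 to 18.9 CPM), with KRT19 and CDH1 at 0. The part of a shift in cell makeup in any of these values was not tested.

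Genes whose pattern was most like that of a factor were ranked by the root mean square difference of centered log2 CPM over the 8 libraries, among 13527 other genes. For GATA1 they were LPAR5 (0.43), IL2RG (0.53) and SIGLEC8 (0.54), set against a range of 3.59 for GATA1 itself. For GATA2 they were MOK (0.14), IL17RA (0.15) and RXRA (0.16). RXRA had 125 and 176 CPM in shNC, 141 and 217 in shKDM3B, 58.1 and 50.6 in shNC_ATRA, and 28.1 and 37.3 in shKDM3B_ATRA. LMO2 was followed by LRP12 (0.12), PXK (0.14) and YPEL2 (0.15), and PXK had 93.3 and 133 CPM in shNC against 248 and 254 in shKDM3B. GFI1B was followed by GNG2 (0.33), LRRC25 (0.33) and APOL3 (0.34), and LRRC25 had at most 0.853 CPM without ATRA and 31.4 to 41.0 CPM with it. The nearest to LYL1 were PPRC1, TRAF3 and BOP1 (0.06 to 0.07), to NFE2 ECI1, TST and PHF23 (0.11 to 0.12), and to ZFPM1 ZNF423, NENF and MSX1 (0.18 to 0.20). In shKDM3B_ATRA LPAR5 (0.105 and 0.301 CPM), SIGLEC8 (0.105 and 0.502) and ZNF423 (0.211 and 0.201) were near the limit of 3 counts. APOL3 was at 0 CPM in shKDM3B. There the likeness leans on the prior count of 1 used for log2 values. Near neighbors are given as a description of these 8 libraries, which share depth and group differences.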

How the data were processed

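RNA of NB4 cells was sequenced in 8 libraries (total RNA, TruSeq RNA Sample Prep kit) of 4 groups. The authors deposited HTSeq read counts per gene and library, and the processing notes name HISAT2, SAMtools, Picard, HTSeq and DESeq2 with build hg38, without versions. The strand setting is not given in the sources used here. Untreated and ATRA files list 56470 and 56609 names, and only names in both (37526) entered fits across treatments.

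Read pairs outside genes were left out of library sizes (8.49% to 51.4% of a library). Counts were fitted in edgeR 4.0.16 (R 4.3.3) for each pair of groups, with TMM scaling, filterByExpr (minimum count 10, total 15) and the quasi-likelihood F test with Benjamini-Hochberg adjustment, which was checked on simulated counts. A gene can pass this filter through 1 group alone, which favors calls in the direction of that group. The difference between the ATRA responses was fitted over all 8 libraries. SE is the absolute log2 fold change divided by the square root of F. The study's thresholds (unadjusted P-value under 0.05, 1.5-fold) defined calls. Likeness used log2 CPM with a prior count of 1. Alternatives were DESeq2 1.42.0, its size factors, library size alone, no filter, 1 fit of all libraries, a replicate block and each library left out.

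The 9 factors and all lists were chosen with earlier results of these data known. Text names every factor, KDM3B, the 3 genes most like each tested factor, and genes from a set chosen by rule. The set held up to 3 genes per list and comparison with the largest change among called genes whose groups do not overlap. Not all of the set is named, and some left out had larger changes than those named, such as RCOR2 with ATRA in shNC cells (-2.21). Genes named beyond that rule (HDC and MAFF with the knockdown, EPB42, RHCE and TUBB1 under ATRA in shNC cells, ALAS2, MPO, ELANE, ITGAM, CTSG, CEBPA, CEBPE, SPI1, CD79A, CD79B, EPCAM, MS4A1, PAX5, KRT19, CDH1, ID3, ID4, PF4, GP9 and the globins) were picked after their values were seen. Positions and exon lengths came from the GENCODE annotation of GRCh38, and promoters from RefSeq.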

Additional observations from a re-analysis of the deposited data

Results flagged for a closer look

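NFE2 differed with the knockdown in opposite directions without and with ATRA, by 0.26 and -0.67 on the log2 scale, and in neither state did the 2 knockdown libraries overlap the 2 controls, as for 40.3% and 49.6% of all genes. Only the value under ATRA passed the call. Its ATRA difference was likewise opposite in the 2 cell types, 0.30 in shNC and -0.61 in shKDM3B cells, from the same 4 groups, and only the second passed the call. The gap was -0.93 ± 0.20 in the fit of all libraries, and no test is read from it because the factors were chosen with these values known.

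MAFF, a small MAF partner of NFE2, had a knockdown value of 0.67 without ATRA and -1.20 with it, again with no overlap of groups, and was called in neither state. The gap had an unadjusted p of 0.0222 and an adjusted p of 1.00 in edgeR over 13528 genes.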

How the results depend on the processing

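The direction of the 7 factors held in 288 of 293 refitted values over the 4 comparisons, and the 5 that turned concern GATA2 (-0.22 and -0.13) and LYL1 (-0.02 and -0.06) in the untreated knockdown comparison and LYL1 under ATRA (0.23). With adjusted p-values in place of unadjusted ones, called genes went from 971 to 3 for the untreated knockdown, from 969 to 0 under ATRA and from 3213 to 1604 for ATRA in shNC cells. The difference between ATRA responses had 0 adjusted calls in edgeR, 540 at the unadjusted threshold (607 with an unadjusted p under 0.05), 25 in DESeq2 and 69 without the filter. The cause of these gaps beyond the threshold itself was not tested. Leaving out 1 library at a time gave 943 to 1650 calls for the untreated knockdown (most without shNC replicate 2), 134 to 5360 for the knockdown under ATRA (fewest without shKDM3B_ATRA replicate 1, 284 without its replicate 2, 2496 without shNC_ATRA replicate 1, most without its replicate 2), 1462 to 5142 for ATRA in shNC cells (1578 and 1462 without shNC replicates 1 and 2, 5142 without shNC_ATRA replicate 1) and 285 to 2432 for the difference (fewest without shKDM3B_ATRA replicate 1, 345 without shNC replicate 1, 360 without shKDM3B replicate 2, most without shNC_ATRA replicate 2), all at the unadjusted threshold. Adjusted calls for the difference were 0 to 507 (2 without shNC_ATRA replicate 1, 507 without its replicate 2, 0 in the rest). For the untreated knockdown they were 195 to 632 (278 in DESeq2), for the knockdown under ATRA 0 without either shKDM3B_ATRA library and 1961 and 5094 without shNC_ATRA replicates 1 and 2, and for ATRA in shNC cells 0 without either shNC library, 4411 without shNC_ATRA replicate 1 and 2306 without its replicate 2. Where a group is left with 1 library, that library is assumed to vary like the others. With library size alone, 45.6% of the genes called for the difference were higher against 31.9% with TMM, and 48.9% against 58.1% for ATRA in shNC cells, where calls went from 1866 higher and 1347 lower to 1617 and 1688. The shares of all genes given as background use TMM.

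With the replicate block the knockdown under ATRA had 525 calls in place of 969, and the other comparisons stayed within 1.5 times. With adjusted p-values the block gave 780 calls against 3 for the untreated knockdown. Deviations of libraries with the same number correlated by 0.39 and 0.02 for the knockdown without and with ATRA and by -0.06 and 0.17 for ATRA in shNC and shKDM3B cells, across 11640 to 12664 genes. With 2 pairs, libraries share only a number. A fit restricted to names listed for all libraries, chosen after seeing the data, gave 872 and 1087 calls for the knockdown without and with ATRA. Depth limits GATA1 under ATRA with the knockdown, GFI1B without ATRA, and TAL1 and KLF1 throughout.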
